A study of Mus musculus with 6 samples.

Results

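The genes of oxidative phosphorylation were taken from the count table by name and gene type, as protein-coding genes whose symbols start with Nduf, Uqcr, Cox4 to Cox8, Atp5, mt-Nd, mt-Co, mt-Atp or mt-Cytb, together with Sdha, Sdhb, Sdhc, Sdhd and Cyc1. Of the 55471 genes in the table, 108 protein-coding genes met the naming rule, and 94 of these had a total of at least 60 counts over the 6 libraries. The 94 genes comprised 87 encoded in the nucleus and 7 encoded in the mitochondrial genome. By complex they were 41 subunits of complex I, 8 assembly factors of complex I, 4 subunits of complex II, 10 of complex III, 14 of complex IV, counting the supercomplex factor Cox7a2l, and 17 genes of complex V. The roles were assigned from textbook knowledge of the subunits. All 94 passed the filter on low counts that preceded the test.

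The study asked how the adult forebrain depends on CBP, the lysine acetyltransferase and transcriptional coactivator encoded by Crebbp. RNA from the hippocampus was sequenced in 3 Control and 3 CBP-ifKO libraries. The CBP-ifKO mice carried floxed Crebbp alleles and a tamoxifen-dependent Cre recombinase under the Camk2a promoter, and the Control mice were littermates without the Cre transgene. All mice, controls included, were of the C57BL/6 strain, aged 3 to 6 months, and had received tamoxifen 5 times by the intragastric route at 20 mg/mL in corn oil. The Camk2a driver is active in forebrain excitatory neurons, so glia, vascular cells and interneurons of the same tissue keep intact Crebbp, and the excised allele can still be transcribed into a truncated product. The methods of the study describe both pooled hippocampi of 3 females and hippocampi of single mice for its CBP-ifKO experiments, and the labels do not say which applies to these libraries, so the spread between replicates may be technical in part.

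Oxidative phosphorylation couples electron transport to ATP synthesis in the inner mitochondrial membrane. Complexes I and II feed electrons from NADH and succinate to ubiquinone, complex III passes them to cytochrome c, complex IV reduces oxygen, and complex V uses the resulting proton gradient to make ATP. Most subunits are encoded in the nucleus and imported, whereas a core set in complexes I, III, IV and V is transcribed from the mitochondrial genome, so that 2 genomes have to supply the same complexes. Neurons rely on this pathway for most of the ATP spent on ion pumping and synaptic transmission.

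Total counts ran from 10199008 to 14950257 per library. Crebbp itself stood at 209, 156 and 208 CPM (counts relative to the TMM-scaled library total) in the Control libraries and fell to 109, 87.1 and 99.4 CPM in the CBP-ifKO libraries, and all 3 CBP-ifKO libraries lay below the lowest Control. Over the whole table, 1149 of 17981 genes tested passed an adjusted p of 0.05 in edgeR's quasi-likelihood test, which is 6.39% of the genes, with 897 (4.99%) lower and 252 (1.4%) higher in CBP-ifKO.

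Among the oxidative phosphorylation genes, none passed the threshold in either direction. This count of 0 of 94 came from edgeR's quasi-likelihood test with Benjamini-Hochberg adjustment over all 17981 genes, and stands beside the 6.39% called in the whole table. DESeq2 and limma-voom also called none of the oxidative phosphorylation genes, against 6.17% and 6.42% of the genes each tested. DESeq2 gave no adjusted p to some lowly counted members, Ndufs5, Atp5g2 and Cox6a2 among them. With no filter on low counts, edgeR called 5 of the 94, Atp5d, Ndufs5, Ndufs7 and Uqcrq lower and Uqcrb higher, against 4.31% of the genes then tested. At an unadjusted p under 0.05 in edgeR with the filter, 14 genes (14.9%) were counted, 10 lower and 4 higher, against 21.2% of all genes tested, of which 13.0% were lower and 8.23% higher. The median log2 fold change of CBP-ifKO over Control was -0.03 for the nuclear-encoded genes and -0.07 for the mitochondrially encoded genes, and that of all genes tested was -0.0033.

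The intervals show how large a difference remained compatible with these libraries. For 84 of the 94 genes (89.4%), the whole 95% interval of the log2 fold change lay within 0.5 of 0, against 57.0% of all genes tested. Levels were not matched in this comparison, and 88 of the 94 genes had a mean of at least 10 CPM. The median half-width of the interval was 0.19 for the 94 genes and 0.26 over all genes. The widest interval was that of Ndufs5, from -2.07 to -0.10, and the next ones belonged to the lowly counted genes Atp5g2, Cox6a2, Ndufaf8 and Cox7c. Genes named here for the width of an interval, an unadjusted p, separated groups, shared sequence or a motif were chosen after their values were seen.

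**Figure D1:**
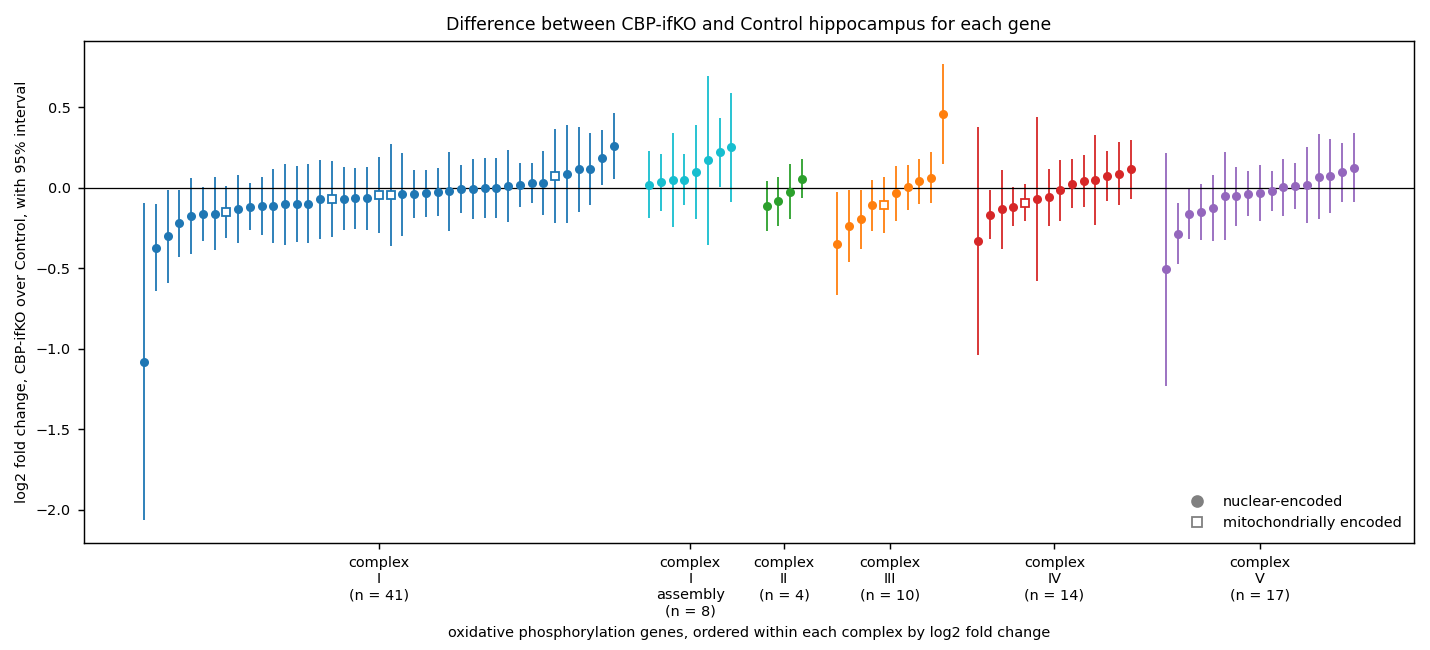
Log2 fold change of CBP-ifKO over Control (y axis) with its 95% interval for each of the 94 genes, ordered within each complex (x axis), with circles for nuclear-encoded and open squares for mitochondrially encoded genes. Intervals of 84 genes lie wholly within 0.5 of 0, and the lowest point is Ndufs5 at -1.08.

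The levels of the genes were likewise close in the 2 genotypes. Per kilobase of exon, the nuclear-encoded genes ranged in the Control libraries from 1.05 CPM for Atp5g2 to 220 CPM for Atp5a1, and the mitochondrially encoded genes from 358 CPM for mt-Nd6 to 3972 CPM for mt-Co1. The median level of the nuclear-encoded genes of a complex was 24.7 CPM per kilobase for complex I, 9.11 for its assembly factors, 38.8 for complex II, 45.1 for complex III, 62.6 for complex IV and 27.4 for complex V. Summed over genes and not divided by length, the 87 nuclear-encoded genes took 6335 ± 542 CPM in the Control libraries, against 6232 ± 266 CPM in the CBP-ifKO ones (mean ± SD, n = 3 each).

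**Figure D2:**
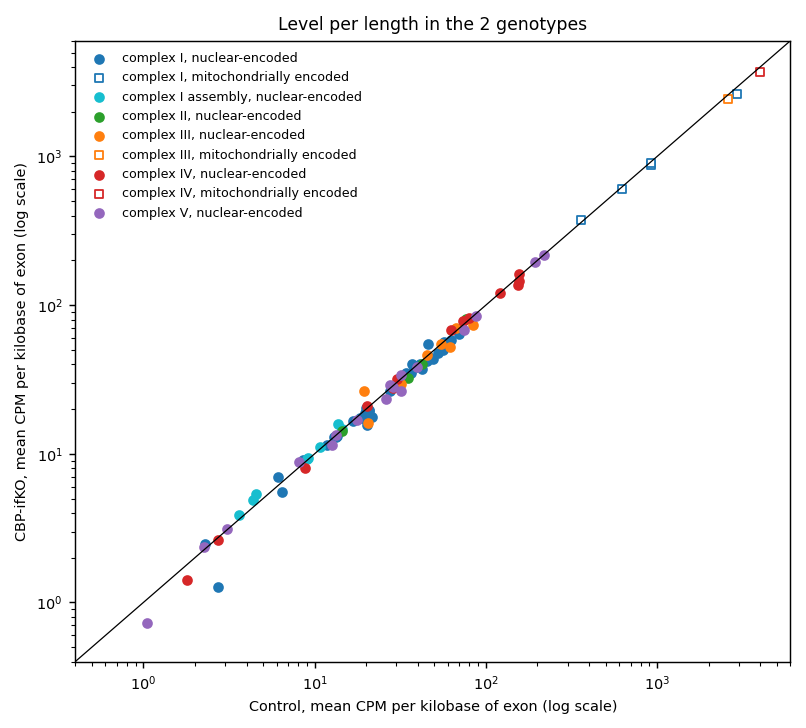
Mean CPM per kilobase of exon in CBP-ifKO (y axis, log scale) against Control (x axis, log scale) for the 94 genes, coloured by complex, with open squares for mitochondrially encoded genes and the line of equality drawn. The points follow the line from Atp5g2 at 1.05 to mt-Co1 at 3972 CPM per kilobase in Control, with Ndufs5 below it at low level.

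Of the 13 protein-coding genes of the mitochondrial genome, 7 were measured, namely mt-Nd1, mt-Nd2, mt-Nd4, mt-Nd5 and mt-Nd6 of complex I, mt-Cytb, the cytochrome b of complex III, and mt-Co1, the catalytic subunit of complex IV. The other 6 fell below the minimum. Counts were 0 in all 6 libraries for mt-Co2 and mt-Co3, core subunits of complex IV, for mt-Atp6 and mt-Atp8, the membrane subunits of complex V, and for mt-Nd4l of complex I, while mt-Nd3 of complex I had 8 counts in all. A count of 0 for genes that every cell with mitochondria uses cannot be read as absence of the transcript, so no level is given for them. The authors kept only reads with a mapping quality above 10, and all but mt-Atp8 of the 6 genes share nearly all of their sequence with other annotated genes as follows.

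When each transcript was broken into words of 50 bases, the read length, 100% of the words of mt-Co2 also occurred in another annotated gene, 99.9% of those of mt-Co3, 99.5% of mt-Atp6, 98.8% of mt-Nd4l and 98.0% of mt-Nd3. The partners are annotated pseudogenes on chromosome 1 of GRCm38, of which 7 lie between 24611535 and 24616197 on the minus strand. Over their aligned lengths, Gm28661 matched 681 bases of mt-Co2, Gm10925 matched 678 bases of mt-Atp6 and Gm28437 matched 783 bases of mt-Co3 without a mismatch. The first 60 bases of the coding sequence of mt-Co2 (chrM:7013-7072, plus strand) and of Gm28661 (chr1:24615506-24615565, minus strand) are printed from GENCODE (GRCm38) to show that a read of 50 bases cannot separate them.
mt-Co2: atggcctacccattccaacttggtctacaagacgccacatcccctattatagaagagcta
Gm28661: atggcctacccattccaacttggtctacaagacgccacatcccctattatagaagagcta

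The pseudogenes themselves held few counts, with none of the 7 above 7 counts in any library. Whether the filter on mapping quality left these genes at 0 was not tested. For mt-Atp8 no annotated partner was found, and 0% of its words were shared. Its counterpart position on chromosome 1 is a gap of 233 bases between Gm10925 and Gm28661, from 24614652 to 24614884, which holds no annotated gene. The sequence of that gap was not used here.

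Of the measured genes, 2 are shared over more than 50% of their words, and reads from the shared part may be missing from their counts. In mt-Nd4, 62.2% of the words occurred elsewhere, and its first 876 of 1378 bases were identical to Gm28439. In mt-Co1 the share was 51.1%, spread over 3 other genes, of which Gm29216 held the most with 28.7% of the words. The end of the shared stretch of mt-Nd4 (chrM:11013-11072) is shown with the bases beyond the end of the annotated pseudogene in capitals.
mt-Nd4: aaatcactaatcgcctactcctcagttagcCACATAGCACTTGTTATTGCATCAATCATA

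**Figure D3:**
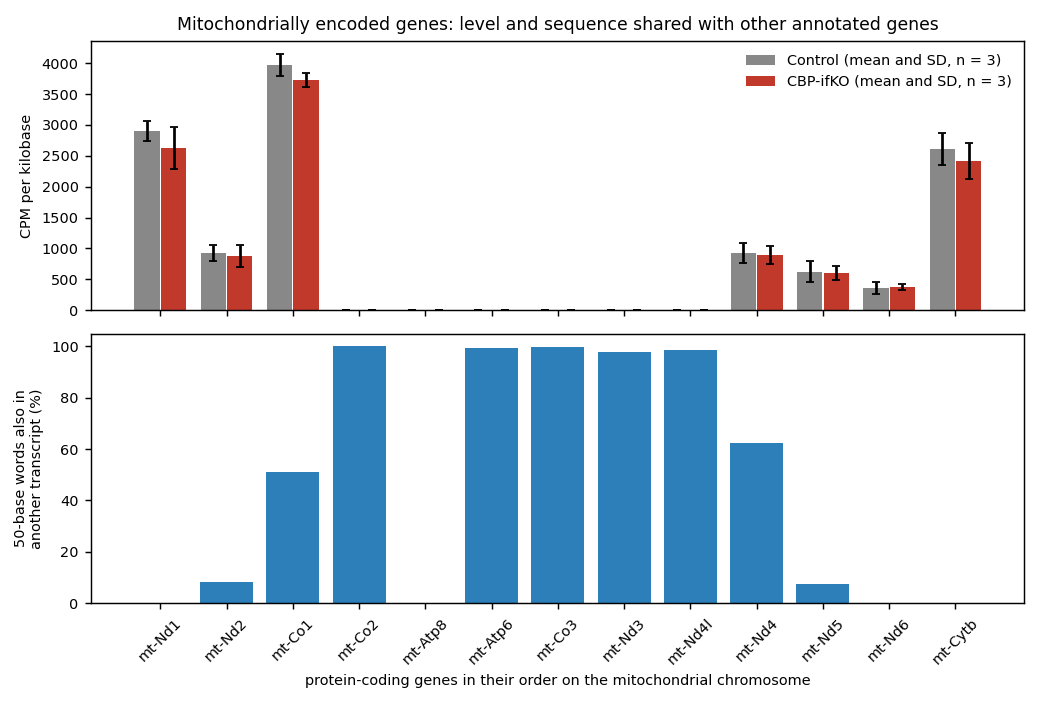
Upper panel, CPM per kilobase (y axis) of the 13 protein-coding mitochondrial genes in Control (grey) and CBP-ifKO (red) as mean and SD of 3 libraries; lower panel, percent of 50-base words that also occur in another annotated transcript. The 5 genes with shares from 98.0% to 100% are at or near 0, as is mt-Atp8 with 0%.

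The measured mitochondrial mRNAs did not separate the genotypes. The transcript of mt-Nd1 stood at 2696, 2693 and 2959.8 CPM in Control and at 2836, 2192 and 2501 CPM in CBP-ifKO. That of mt-Cytb stood at 2949, 2699 and 3294 CPM in Control and at 3049, 2398 and 2853 CPM in CBP-ifKO, and that of mt-Co1 at 5824, 6209 and 6378 CPM against 5946, 5609 and 5709 CPM. In all 3 the groups overlapped, and the lowest library was CBP-ifKO replicate 2. The log2 fold changes were -0.15 for mt-Nd1 (95% interval -0.31 to 0.01), -0.11 for mt-Cytb (-0.28 to 0.07) and -0.09 for mt-Co1 (-0.21 to 0.02), with adjusted p-values in edgeR of 0.272, 0.494 and 0.343.

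The remaining mitochondrial complex I genes varied more among the Control libraries. The transcript of mt-Nd5 stood at 1259.6, 775 and 1357 CPM in Control and at 1312, 922 and 1058 CPM in CBP-ifKO. That of mt-Nd6, the only measured gene of the minus strand, stood at 194, 132 and 231 CPM in Control and at 218, 167 and 201 CPM in CBP-ifKO. In both genes Control replicate 2 was the lowest of all 6 libraries. For mt-Nd2 the values were 972, 821 and 1082 CPM against 1095, 736 and 907 CPM, and for mt-Nd4 they were 1357, 1019 and 1446 CPM against 1457, 1059.8 and 1189 CPM. The log2 fold changes of these 4 genes lay between -0.07 and 0.07, and their 95% intervals between -0.36 and 0.37.

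Nuclear-encoded and mitochondrially encoded genes varied between libraries of one genotype, in opposite directions in Control replicates 1 and 2 and in CBP-ifKO replicates 1 and 2. In Control replicate 2, 76 of the 87 nuclear-encoded genes lay above their mean over the 6 libraries, with a median deviation of 0.17 on the log2 scale, while 2 of the 7 mitochondrially encoded genes did, with a median deviation of -0.17. CBP-ifKO replicate 2 showed 62 of 87 nuclear-encoded genes above the mean and 0 of 7 mitochondrially encoded ones, with medians of 0.06 and -0.24. The opposite held in CBP-ifKO replicate 1, with 17 of 87 and 7 of 7 genes above the mean and medians of -0.08 and 0.22. In Control replicate 1 these were 15 of 87 and 6 of 7, with medians of -0.11 and 0.05. The standard deviation of the library medians within a genotype was 0.11 for the nuclear-encoded and 0.22 for the mitochondrially encoded genes, which is larger than the difference between genotypes in either.

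The dependence of counts on GC content also differed between these libraries. Per 10 percentage points of GC, log2 levels deviated by 0.14 in Control replicate 2 and by -0.12 in CBP-ifKO replicate 2, and by -0.02 to 0.04 in the other libraries. The median GC content was 50.0% for the nuclear-encoded and 37.1% for the mitochondrially encoded genes. After removal of the trends on GC content and length in each library, the nuclear-encoded median deviation in Control replicate 2 was 0.15 and the mitochondrial one -0.01, while in CBP-ifKO replicate 2 the values were 0.05 and -0.36. Leaving out Control replicate 2 moved the median log2 fold change of the nuclear-encoded genes to 0.05 and leaving out Control replicate 1 moved it to -0.10. The mitochondrial median became 0.03 when Control replicate 3 was left out and 0.06 when CBP-ifKO replicate 2 was. It became -0.16 when Control replicate 2 was left out and -0.18 when CBP-ifKO replicate 1 was, and -0.16 with the GC and length trends removed, with 7 of 7 genes below 0 in each of these.

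**Figure D4:**
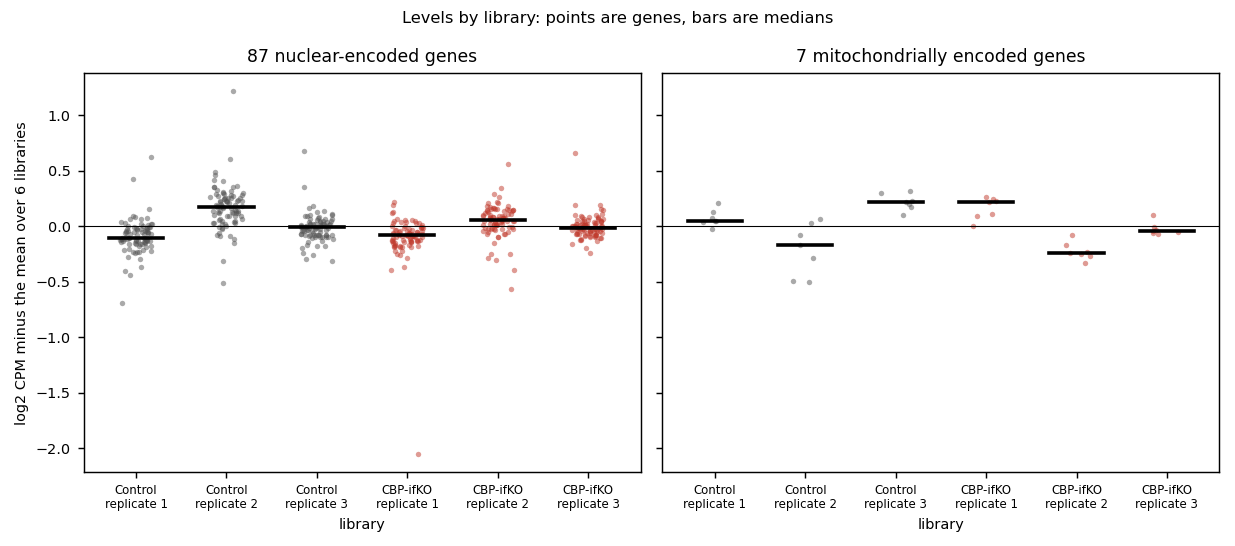
Log2 CPM of each gene minus its mean over the 6 libraries (y axis) by library (x axis), for 87 nuclear-encoded genes (left) and 7 mitochondrially encoded genes (right), with points as genes and bars as medians. Control replicate 2 has the highest nuclear-encoded median, 0.17, and CBP-ifKO replicate 2 the lowest mitochondrial median, -0.24.

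In complex I, 27 of the 36 nuclear-encoded subunits had a log2 fold change below 0, against 50.7% of all genes tested, and the median was -0.05 against -0.0033 for all genes. Such counts depended on single libraries and on the scaling. Over all 87 nuclear-encoded genes, 52 were below 0. This count was 24 without Control replicate 2, 62 without Control replicate 1 and 37 with scaling by library totals. None of the 36 subunits of complex I passed the threshold in edgeR, and 6 of them had an unadjusted p under 0.05, against 21.2% of all genes tested. Ndufs7, a nuclear-encoded core subunit next to the ubiquinone site, had the largest log2 fold change among the complex I genes of at least 10 CPM. Ndufs7 stood at 26.9, 42.5 and 34.2 CPM in Control and at 27.6, 24.7 and 28.2 CPM in CBP-ifKO. The groups overlapped only through Control replicate 1, and the log2 fold change of -0.37 had an SE of 0.13 and an edgeR adjusted p of 0.0946. Leaving out 1 library at a time, it ran from -0.52 without Control replicate 1 (edgeR adjusted p = 0.00814) to -0.18 without Control replicate 2 (0.351), and it was -0.22 with the GC and length trends removed (0.219). Of the core subunits that carry electrons from NADH, Ndufv1, the flavin-binding subunit, had a log2 fold change of -0.04, and Ndufs1, an iron-sulfur subunit, one of 0.03.

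The accessory subunits of complex I surround the core, and many of them are required for its assembly and stability. Of the 29 measured, the groups did not overlap in 4. Ndufa1, a small membrane-arm subunit, stood at 18.6, 20.7 and 18.5 CPM in Control and at 21.6, 23.5 and 24.1 CPM in CBP-ifKO, with a log2 fold change of 0.26 (edgeR adjusted p = 0.128). Ndufb2 stood at 34.0, 34.6 and 35.2 CPM against 40.02, 41.5 and 36.5 CPM, with 0.19 on the log2 scale (edgeR adjusted p = 0.183). In both of these the lowest CBP-ifKO value exceeded the highest Control value.

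Ndufb7 and Ndufa13 separated in the other direction. Ndufb7 stood at 25.7, 33.1 and 29.1 CPM in Control and at 24.7, 25.3 and 25.5 CPM in CBP-ifKO, and Ndufa13 at 64.8, 79.5 and 66.4 CPM against 62.0, 63.0 and 63.6 CPM. The log2 fold changes were -0.22 and -0.16, and neither passed the threshold in edgeR. Of the exon bases of Ndufa13, 30.0% overlap Tssk6 on the other strand, and it is not stated whether counting used the strand. Over the 94 genes, the groups did not overlap in 8 (8.51%), 4 lower and 4 higher, against 25.6% of all genes tested, of which 13.9% were lower and 11.8% higher.

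Ndufs5, an accessory subunit, had the largest fold change of the 94 genes and the fewest counts of complex I. Its raw counts were 23, 39 and 15 in Control and 2, 13 and 27 in CBP-ifKO, and its log2 fold change of -1.08 had an SE of 0.47 and an edgeR adjusted p of 0.190. The groups overlapped, since CBP-ifKO replicate 3 exceeded Control replicates 1 and 3, and without CBP-ifKO replicate 3 the log2 fold change was -2.00 with an edgeR adjusted p of 0.0407. Without CBP-ifKO replicate 1 it was -0.67 (edgeR adjusted p = 0.400) and without Control replicate 2 it was -0.71 (0.451). Of its 50-base words, 21.7% also occur elsewhere, mainly in BC002163 on chromosome 16 (42955631 to 42955949, plus strand), which aligned with 319 bases of Ndufs5 with 2 mismatches. A stretch of the coding sequence of Ndufs5 (chr4:123715958-123716017, minus strand) and its counterpart in BC002163 (chr16:42955693-42955752, plus strand) are printed from GENCODE (GRCm38), with the mismatched bases in capitals.
Ndufs5: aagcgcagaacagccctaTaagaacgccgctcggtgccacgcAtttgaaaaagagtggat
BC002163: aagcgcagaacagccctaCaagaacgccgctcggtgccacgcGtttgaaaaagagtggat

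Counted from the first base printed, the substitutions from Ndufs5 to BC002163 were T19C and A43G. Reads assigned to BC002163 numbered 84, 54 and 78 in Control and 106, 180 and 78 in CBP-ifKO, so the copy held more counts than Ndufs5 in every library. The CPM of Ndufs5 and BC002163 added together were 10.05, 7.99 and 9.22 in Control and 10.5, 12.7 and 8.64 in CBP-ifKO. The groups overlapped in this sum. Whether reads from the nearly identical parts of both genes were assigned to either or dropped was not tested, and the fold change of Ndufs5 is uncertain.

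The 8 assembly factors of complex I, which help build the complex without remaining in it, all had log2 fold changes above 0, from 0.02 for Ndufaf5 to 0.25 for Ndufaf6, with a median of 0.07 against -0.0033 for all genes. Of all 17981 genes tested, 8868 were above 0. None of the 8 passed the threshold in edgeR and 1 had an unadjusted p under 0.05, against 21.2% of all genes. That gene was Ndufaf1, a chaperone of complex I intermediates, at 20.5, 22.5 and 18.7 CPM in Control and 22.6, 25.6 and 23.6 CPM in CBP-ifKO. Its groups were separated by 0.0774 CPM, and the log2 fold change of 0.22 had an SE of 0.10 and an edgeR adjusted p of 0.219. Ndufaf2 overlaps the noncoding gene B230220B15Rik on the other strand over 65.6% of its exon bases.

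Complex II, the succinate dehydrogenase, is the only one of the complexes whose subunits all come from the nucleus. Sdha, the flavoprotein, stood at 298, 331 and 325 CPM in Control and at 331, 332 and 328 CPM in CBP-ifKO. Sdhb, the iron-sulfur subunit, stood at 72.3, 86.7 and 76.1 CPM against 71.5, 73.6 and 71.9 CPM. The groups overlapped in both. The log2 fold changes were 0.06 for Sdha (95% interval -0.06 to 0.18), -0.12 for Sdhb (-0.27 to 0.04), -0.02 for Sdhc (-0.20 to 0.15) and -0.08 for Sdhd (-0.24 to 0.07), the latter 2 being the membrane anchors. None of the 4 genes passed the threshold in edgeR, and the intervals of all 4 lay between -0.27 and 0.18.

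In complex III, the larger log2 fold changes were those of small subunits, which surround the catalytic core. Of these 5 genes, 4 had an unadjusted p under 0.05, against 21.2% of all genes tested, and they did not share a direction. The 4 core or catalytic subunits, Cyc1, Uqcrfs1, Uqcrc1 and Uqcrc2, ranged from -0.11 to 0.04 on the log2 scale, and the difference between small and core subunits was not tested. Uqcrq, Uqcr11 and Uqcr10 had log2 fold changes of -0.35, -0.24 and -0.20, and Uqcrb one of 0.46.

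Uqcrb, which binds near the ubiquinone site, stood at 14.7, 20.2 and 15.9 CPM in Control and at 21.4, 28.9 and 19.1 CPM in CBP-ifKO. Only Control replicate 2 and CBP-ifKO replicate 3 overlapped, and the log2 fold change had an SE of 0.15 and an edgeR adjusted p of 0.0781. On leaving out Control replicate 2 it was 0.62 with an edgeR adjusted p of 0.0153, and on leaving out CBP-ifKO replicate 3 it was 0.59 with an edgeR adjusted p of 0.0490. On leaving out CBP-ifKO replicate 2 it was 0.26, with an edgeR adjusted p of 0.383. Of the words of Uqcrb, 25.4% occur in other annotated transcripts, and 50 of its exon bases overlap Gm10767 on the other strand.

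Uqcrq stood at 28.5, 49.6 and 33.9 CPM in Control and at 25.1, 33.1 and 29.8 CPM in CBP-ifKO, and Uqcr11 at 32.6, 46.2 and 39.7 CPM against 32.7, 35.6 and 32.3 CPM. In both, Control replicate 2 was the highest library and the groups overlapped through Control replicate 1. For Uqcrq the log2 fold change ran from -0.51 without Control replicate 1 (edgeR adjusted p = 0.0385) to -0.07 without Control replicate 2 (0.778). For Uqcr11 it was -0.36 (0.0380) and -0.09 (0.630) without the same libraries, and -0.08 with the GC and length trends removed (0.664).

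Complex IV is the complex with the most tissue isoforms. Cox4i1, the general isoform of subunit IV, stood at 235, 257 and 236 CPM in Control and at 216, 230.3 and 226 CPM in CBP-ifKO. All 3 CBP-ifKO libraries lay below the lowest Control, by 5.16 CPM or more, and the log2 fold change was -0.12 (95% interval -0.24 to 0.01, edgeR adjusted p = 0.266). Its partner Cox4i2, an isoform known from lung, had 35 counts over the 6 libraries and was below the minimum.

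Cox6a1, the general isoform of subunit VIa, stood at 97.8, 118 and 107 CPM in Control and at 91.5, 99.4 and 96.9 CPM in CBP-ifKO, where only Control replicate 1 and CBP-ifKO replicate 2 overlapped. Its log2 fold change was -0.17 with an SE of 0.07 and an edgeR adjusted p of 0.195. This was the largest difference of complex IV among genes of at least 10 CPM, and with the GC and length trends removed it was 0.05. Cox6a2, the heart and muscle isoform, stood between 0.775 and 1.55 CPM in all 6 libraries, just above the minimum with 77 counts in total, and at 1.80 CPM per kilobase in Control against 153 for Cox6a1. The general isoform Cox7a2 stood between 70.4 and 82.6 CPM, with a log2 fold change of 0.03 (95% interval -0.12 to 0.18), and its muscle partner Cox7a1, just below the minimum, had 55 counts in all.

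Ndufa4, now counted with complex IV, stood at 90.2, 118 and 97.9 CPM in Control and at 96.0, 119 and 110 CPM in CBP-ifKO, with a log2 fold change of 0.09 (95% interval -0.11 to 0.28), whereas its paralogue Ndufa4l2 had 49 counts in all. Cox6b2, Cox7b2, Cox8b and Cox8c, isoforms known from testis or muscle, had 37, 23, 9 and 0 counts, and a second Ensembl gene named Atp5o had 0. Cox7c, the general form of subunit VIIc, was at 2.23 to 3.87 CPM in the 6 libraries, with a level of 2.73 CPM per kilobase in Control against a median of 62.6 for the nuclear-encoded genes of complex IV, and 22.1% of its words occur in another annotated transcript. Of 5 muscle markers, Ckm, Tnnt3 and Mylpf were at 0.694 CPM or less in every library, and the summed level of all 5 ran from 8.17 to 9.45 CPM in Control and from 3.97 to 4.69 CPM in CBP-ifKO. Only 2 of the 5, Acta1 and Myh7, had enough counts to be tested. Both were called lower, against 4.99% of all genes tested, with log2 fold changes of -0.93 and -1.37 (edgeR adjusted p = 0.0190 and 0.00424). The call of Acta1 was lost in the fits that left out Control replicate 3 (edgeR adjusted p = 0.0877), the first CBP-ifKO library (0.0680) or the second (0.0767), and in DESeq2 (adjusted p = 0.0634). The part of muscle transcripts in the level of Cox6a2 was not tested.

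In complex V, the smallest adjusted p of all 94 genes was that of Atp5d, the delta subunit of the central stalk. Atp5d stood at 53.8, 69.4 and 62.7 CPM in Control and at 51.5, 47.1 and 54.4 CPM in CBP-ifKO. The groups overlapped through Control replicate 1 and CBP-ifKO replicate 3, and the log2 fold change of -0.28 had an SE of 0.09 and an edgeR adjusted p of 0.0678. It ran from -0.38 without Control replicate 1 (edgeR adjusted p = 0.0151) to -0.18 without Control replicate 2 (0.202), and was -0.14 with the GC and length trends removed (0.254). Atp5a1 and Atp5b, the alpha and beta subunits of the catalytic head, had log2 fold changes of -0.02 (95% interval -0.14 to 0.10) and 0.01 (-0.13 to 0.15).

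In the peripheral stalk, which holds the head against rotation, Atp5o stood at 51.5, 53.3 and 50.1 CPM in Control and at 44.5, 49.2 and 44.6 CPM in CBP-ifKO. The highest CBP-ifKO value was lower than the lowest Control value, and the log2 fold change was -0.16 (95% interval -0.31 to -0.01, edgeR adjusted p = 0.214). Atp5s, also known as coupling factor B, separated in the other direction at 17.6, 16.1 and 15.6 CPM against 17.7, 18.3 and 17.7 CPM, with a log2 fold change of 0.12 (edgeR adjusted p = 0.531).

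The c-ring subunit is made from 3 genes that encode the same mature protein with different import signals. Per kilobase of exon, Atp5g3 stood at 39.9 CPM in Control, Atp5g1 at 3.09 and Atp5g2 at 1.05. The annotated exon lengths behind these levels were 2181, 4912 and 1675 bases, respectively. Over the 6 libraries these levels ran from 34.5 to 45.4 CPM per kilobase for Atp5g3, from 2.81 to 3.27 for Atp5g1 and from 0.564 to 1.42 for Atp5g2, so that the ranges did not overlap. Log2 fold changes were -0.05 for Atp5g3 (95% interval -0.24 to 0.13), 0.02 for Atp5g1 (-0.22 to 0.25) and -0.51 for Atp5g2 (-1.23 to 0.22). Of the words of Atp5g2, 36.7% occur in another annotated transcript, the highest share among the nuclear-encoded genes. The share was 11.1% for Atp5g1 and 0% for Atp5g3.

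Promoters were available from RefSeq (GRCm38.p6) for 70 of the 87 nuclear-encoded genes, as windows from 250 bases before to 50 bases after the annotated start. CBP was first known as a partner of CREB, whose full-length binding element is TGACGTCA, so the windows were searched for it on both strands. It was found in 4 of 75 member windows (5.33%) and in 1.79% of all 32851 windows. The genes were Ndufa10, Ndufa11, Ndufb2 and Uqcrfs1, and the surrounding 40 bases are printed 5′ to 3′ on the gene's strand with the element in capitals, at chr1:92473802-92473841 (minus), chr17:56717588-56717627 (plus), chr6:39592525-39592564 (plus) and chr13:30545322-30545361 (minus).
Ndufa10: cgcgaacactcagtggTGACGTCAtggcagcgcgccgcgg
Ndufa11: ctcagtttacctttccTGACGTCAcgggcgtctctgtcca
Ndufb2: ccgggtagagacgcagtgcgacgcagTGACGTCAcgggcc
Uqcrfs1: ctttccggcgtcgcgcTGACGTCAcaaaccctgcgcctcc

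The log2 fold changes of these 4 genes were -0.03, -0.11, 0.19 and 0.04, and none passed the threshold in edgeR. The element begins 67, 158, 14 and 29 bases before the start, respectively. Ndufb2 was the only one of the 4 whose groups did not overlap, and it was higher in CBP-ifKO.

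A second set of letters, CGCATGCG, the core of the element bound by the respiratory factor NRF1, was found in 11 of the 75 windows (14.7%) against 1.87% of all windows. One of them, Cox6a1 (chr5:115349096-115349135, minus), is printed in the same way.
Cox6a1: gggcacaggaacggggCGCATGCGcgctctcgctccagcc
The 11 genes, Atp5g2, Atp5j, Atp5k, Atp5l, Cox6a1, Ndufa8, Ndufa11, Ndufaf4, Ndufaf5, Uqcr11 and Uqcrc1, had log2 fold changes from -0.51 to 0.07. Of these 11, 8 were below 0, against 52 of the 87 nuclear-encoded genes and 50.7% of all genes tested. The letters CCGGAAG, part of the site of ETS factors, were found in 18 of the 75 windows, against 8.86% of all windows. The letters AAGGTCA, part of the site of oestrogen-related receptors, were found in 10.7% of member windows, against 4.72% of all. For AAGATGGC, the core of the YY1 site, the shares were 13.3% and 2.75%. Some of these occurrences lie in the same windows. None of the genes with any of the 5 elements passed the threshold in edgeR.

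Of 16 regulators of mitochondrial biogenesis, none passed the threshold in edgeR. An unadjusted p under 0.05 was found for 2, Esrra and Sirt1, against 21.2% of all genes tested. DESeq2 also called none. The log2 fold changes ran from -0.89 to 0.29, with a median of -0.03 against -0.0033 for all genes tested. The lowest was Esrrb at 1.39 CPM or less in every library (95% interval -1.90 to 0.12, edgeR adjusted p = 0.303). Esrra, an oestrogen-related receptor, stood at 17.7, 26.0 and 23.3 CPM in Control and at 19.6, 17.02 and 16.95 CPM in CBP-ifKO, with a log2 fold change of -0.33 (edgeR adjusted p = 0.136). It was called on leaving out Control replicate 1 (edgeR adjusted p = 0.0201) and with the replicate block together with the GC and length offsets (0.0288). Sirt1, a deacetylase that acts on Ppargc1a, stood at 30.7, 27.5 and 26.1 CPM against 31.1, 34.4 and 37.1 CPM, with 0.29 on the log2 scale (edgeR adjusted p = 0.0804), and was called when scaling by library totals. Ppargc1a, the coactivator that is the main inducer of the pathway, stood at 62.0, 52.4 and 65.4 CPM in Control and at 58.9, 53.0 and 52.3 CPM in CBP-ifKO, with a log2 fold change of -0.13 (95% interval -0.31 to 0.05). Log2 fold changes were -0.07 for Nrf1 (-0.27 to 0.12), 0.09 for Gabpa (-0.07 to 0.26) and 0.09 for Tfam (-0.08 to 0.25), the activator of mitochondrial transcription. Cycs, the mobile electron carrier cytochrome c, had 0.01 (-0.22 to 0.23).

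In the list of 23 genes for mitochondrial transcription and RNA handling, 21 were tested. Of these, 17 had a log2 fold change above 0, against 8868 of all 17981 genes tested. The median was 0.12 against -0.0033 for all genes, and 1 gene of the list passed the threshold, against 6.39% of all genes. This was Ssbp1, the single-stranded DNA-binding protein of mitochondrial DNA replication, at 14.9, 14.7 and 15.7 CPM in Control and 17.8, 22.6 and 19.5 CPM in CBP-ifKO. The lowest CBP-ifKO value exceeded the highest Control value, and the log2 fold change of 0.41 had an SE of 0.11 and an edgeR adjusted p of 0.0351. Of the 6 fits that left out a single library, the call was kept in 1, that without CBP-ifKO replicate 1, and lost in 5, with edgeR adjusted p-values up to 0.179 on leaving out CBP-ifKO replicate 2. The others were 0.0764, 0.0525 and 0.0951 on leaving out Control replicates 1, 2 and 3 in turn, and 0.0832 on leaving out CBP-ifKO replicate 3. DESeq2 did not call Ssbp1 (adjusted p = 0.0641). Assembly factors outside the naming rule showed 30 of 37 tested genes above 0, against the same 8868 of 17981, with a median of 0.07 against -0.0033. None of them passed in edgeR or DESeq2, with 5 at an unadjusted p under 0.05 in edgeR, against 21.2% of all genes.

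Among 17 genes for carriers, cytochrome c, uncoupling proteins and related functions, 1 passed the threshold, against 6.39% of all genes tested. Slc25a27, a brain uncoupling protein also called UCP4, rose from 44.1, 42.1 and 44.3 CPM in Control to 54.0, 54.4 and 59.7 CPM in CBP-ifKO, a log2 fold change of 0.37 with an SE of 0.07 and an edgeR adjusted p of 0.00565. It was called in all 16 alternative analyses, with log2 fold changes from 0.33 to 0.41. The lowest log2 fold change of the list was -0.38. Ckb, a creatine kinase in the list, was not called in the reported analysis but was called lower in some alternatives. Its log2 fold change was -0.37 with the replicate block (edgeR adjusted p = 0.0132) and -0.15 with the GC and length offsets added to the block (0.0368). Of 19 genes of the TCA cycle, which supplies the electrons, none passed in edgeR or DESeq2. An unadjusted p under 0.05 in edgeR was found for 2, against 21.2% of all genes. The median was -0.04 against -0.0033 for all genes.

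Of 16 genes of glycolysis, 2 were called lower, against 4.99% of all genes tested. A log2 fold change below 0 was found for 13 of the 16, against 50.7% of all genes tested. The median log2 fold change was -0.08 against -0.0033 for all genes. Pfkl, the liver-type subunit of phosphofructokinase, stood at 197, 222 and 209 CPM in Control and at 168, 165 and 183 CPM in CBP-ifKO, a log2 fold change of -0.28 with an SE of 0.06 and an edgeR adjusted p of 0.0127. Aldoa, an aldolase, stood at 817, 986 and 862 CPM against 758, 754 and 758 CPM, with a log2 fold change of -0.23 (edgeR adjusted p = 0.0415). The groups were separate in both genes. With the GC and length trends removed, neither was called, at log2 fold changes of -0.17 for Pfkl (edgeR adjusted p = 0.0588) and -0.14 for Aldoa (0.108). With the replicate block added to that removal both were called, at 0.0200 and 0.0293. The call of Pfkl was lost without Control replicate 3 (edgeR adjusted p = 0.0605), replicate 1 of CBP-ifKO (0.0518) or its replicate 2 (0.0773). That of Aldoa was lost in all 5 fits that left out a library other than Control replicate 1, with edgeR adjusted p-values from 0.0939 without Control replicate 2 to 0.172 without CBP-ifKO replicate 3, and was also lost when scaling by library totals alone.

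The tissue label was checked against markers of hippocampal excitatory neurons, of which all 5 were detected at a summed 2594 to 3029 CPM in Control and 2735 to 3107 CPM in CBP-ifKO. Of these 5, 3 had a log2 fold change below 0 and 2 above 0, with a median of -0.04 against -0.0033 for all genes. The 1 called lower, against 4.99% of all genes tested, was Wfs1, a protein of the endoplasmic reticulum that marks CA1 pyramidal cells. Wfs1 fell from 49.4, 45.6 and 52.2 CPM in Control to 22.9, 20.8 and 21.0 CPM in CBP-ifKO. Its log2 fold change was -1.19 with an edgeR adjusted p of 8.34e-07, and it was called in all 16 alternatives. The part of this cell type in the levels of the oxidative phosphorylation genes was not tested. Of the markers of other cells, 2 of 5 for interneurons were called lower (Sst and Slc32a1), against 4.99% of all genes tested. None of those for astrocytes, oligodendrocytes, microglia, endothelium or choroid plexus passed the threshold in edgeR. All 5 interneuron and all 5 endothelial markers were below 0, with a median log2 fold change of -0.19 in each, against 50.7% of all genes. Below 0 were also 4 of 5 for astrocytes, 4 of 5 for microglia, 3 of 5 for oligodendrocytes and 1 of 3 tested for choroid plexus. The call of Slc32a1 was kept in 7 of 16 alternatives. Summed levels of astrocyte markers were 1191 to 1247 CPM in Control and 1113 to 1212 CPM in CBP-ifKO, and those of oligodendrocyte markers 2292 to 2710.1 and 2357 to 2566 CPM. In bulk tissue, fewer cells of a type and less RNA per cell cannot be told apart, and a difference confined to excitatory neurons would be diluted by the other cells.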

How the data were processed

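Per the labels, single-end libraries with a read length of 50 bp were sequenced from hippocampal total RNA. The authors trimmed adapters with Trim Galore (version 0.6.4), aligned the reads with STAR (version 2.6.1) to GRCm38, kept those with a mapping quality above 10 and counted them over genes, and deposited raw counts without normalization. Whether strand was used is not given in the sources used here. The symbols, coordinates and transcripts came from GENCODE (GRCm38), which matched 55230 of 55471 identifiers. The members and all gene lists were chosen with earlier results of these data known.

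The test was the quasi-likelihood F-test of edgeR (version 4.0.16, in R 4.3.3) with TMM scaling, filterByExpr (minimum count 10, minimum total 15) and Benjamini-Hochberg adjustment over all genes tested, with a threshold of 0.05. SE is the log2 fold change over the square root of F, and 95% intervals used its total degrees of freedom. Named were every mitochondrially encoded gene, genes past the threshold, the largest change per complex at a mean of at least 10 CPM, isoform pairs, c-ring and Sdh genes, and called genes of the companion lists with Cycs, Ppargc1a, Nrf1, Gabpa and Tfam. The median of a list is given beside that of all genes, with no test of the list. Alternatives were DESeq2 (version 1.42.0), limma-voom (version 3.58.1), other scalings and filters, a block for replicate numbers, offsets that remove the trends on GC content and length (natural splines, 5 degrees of freedom), and each library left out in turn. Total counts of 10199008 to 14950257 per library, with a variation between replicates of 6.81% beyond counting error, set the precision, which is lower for genes of a few CPM. Intervals cover the spread between these libraries.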

Additional observations from a re-analysis of the deposited data

How the results depend on the processing

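Over all genes, 1149 were called in the reported analysis, and 498 to 1326 with a library left out. With scaling by library totals alone, 667 of 1181 calls were lower (56.5%, against 78.1%). Deviations of same-numbered libraries from their group means correlated at 0.08, 0.04 and 0.0022. The GC trends were left in for these correlations, so they cannot exclude a pairing by replicate number. With the replicate block, 1210 genes were called, among them 1 nuclear-encoded member lower (Uqcrq) and 1 higher (Uqcrb). With the replicate block and the GC and length offsets, 1948 genes were called, with 3 nuclear-encoded members lower (Ndufs5, Uqcrq and Atp5o), 1 higher (Uqcrb) and 3 mitochondrially encoded members lower (mt-Nd1, mt-Cytb and mt-Co1), and 9 genes of the companion lists, against 4. With offsets alone, 0 members and 2 companion genes were called. With no filter on low counts, 4 nuclear-encoded members were called lower (Atp5d, Ndufs5, Ndufs7 and Uqcrq) and 1 higher (Uqcrb), and with library totals 1 higher (Uqcrb). With a library left out, 0 to 4 nuclear-encoded members were called lower, 0 to 1 higher, and 1 to 6 companion genes were called. The cause of these changes was not tested. RLE scaling, scaling without mitochondrial genes, DESeq2, limma-voom and a filter on 10 counts per library called 0 members.

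The log2 fold changes of some named members turned direction. With library totals, Sdhc was 0.0222, mt-Nd4 0.0015 and mt-Nd5 0.0040. With offsets, Atp5g1 was -0.00028, Cox6a1 0.0546, Ndufa4 -0.0140 and mt-Nd6 -0.0130, and with the replicate block added -0.0014, 0.0536, -0.0115 and -0.0015. With a library left out, log2 fold changes ran from -0.0434 to 0.0608 for Atp5g1, -0.130 to 0.0622 for Atp5g3, -0.0233 to 0.105 for Cox7a2, -0.0981 to 0.0412 for Sdhc, -0.221 to 0.0710 for mt-Nd2, -0.180 to 0.0623 for mt-Nd4, -0.245 to 0.112 for mt-Nd5 and -0.115 to 0.263 for mt-Nd6.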
